A study of Homo sapiens with 19 samples.

Results

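miR-23a-3p, miR-27a-3p, miR-23b-3p, miR-27b-3p and miR-24-3p are the mature 3′-arm products of a pair of paralogous human microRNA (miRNA) clusters. These 5 names were taken from the count files by name, with no cutoff on their values, though earlier results of these data were known. All 5 were listed, among 1043 miRNAs in the series. The a cluster makes miR-23a-3p and miR-27a-3p, the b cluster makes miR-23b-3p and miR-27b-3p, and both make an identical miR-24-3p. Small RNA was sequenced from wild-type Caco-2 cells, an established colorectal epithelial line, and from their conditioned medium. All groups came from cells that had reached 80% confluence and had then spent 24 h in medium free of serum and antibiotics. The groups used were cell lysate (3 libraries), unfractionated extracellular RNA of medium cleared of debris (total exRNA, 4), what a spin of that medium at 40000 xg brought down (P40, 4), what a second spin at 100000 xg brought down (P100, 4) and the fluid left over it (S100, 3). The 2 groups of unpelleted medium, total exRNA and S100, went through nucleic acid precipitation ahead of Trizol, whereas pellets and cells went straight into Trizol. In comparisons across these preparations the fraction and the preparation cannot be told apart. The only source is 1 cell line, and no label says that replicates were separate cultures, so each p-value measures only the spread between these samples.

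A miRNA hairpin is cut into a duplex of a 5p and a 3p arm, and the arm that is kept in an Argonaute protein guides it to messenger RNAs that pair with its seed, the bases 2 to 8. Members with 1 seed are expected to share many targets, so paralogs such as miR-23a-3p and miR-23b-3p are often treated as interchangeable. The miR-23/27/24 clusters are broadly expressed in epithelia, blood vessels and immune cells. miR-27 is known for targets in lipid metabolism and fat cell differentiation, miR-23 for glutaminase, and miR-24 for cell cycle regulators. Cells also release miRNAs into their medium inside vesicles, which high-speed spins pellet, and in protein complexes, many of which stay in the supernatant.

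The mature sequences below, from RefSeq (GRCh38.p14), are shown because the a and b members of a pair can be told apart only near their 3′ ends. Capitals mark the seed.
hsa-miR-23a-3p: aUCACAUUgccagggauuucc
hsa-miR-23b-3p: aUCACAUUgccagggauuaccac
hsa-miR-27a-3p: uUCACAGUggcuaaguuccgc
hsa-miR-27b-3p: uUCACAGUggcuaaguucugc
hsa-miR-24-3p: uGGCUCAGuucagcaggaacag

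The sequences were matched for 5 of 5 members. Counted from 1 at the 5′ end, miR-23a-3p and miR-23b-3p differ by U19A, and miR-23b-3p is 2 bases longer (23 against 21). miR-27a-3p and miR-27b-3p, both 21 bases long, differ by C19U. A read that ends before base 19 therefore fits either member of its pair, and how such reads were assigned is not given in the sources used here. All a and b values below are uncertain in that respect. Among 2370 human mature names in the table, the seed UCACAUU of miR-23 also occurs in miR-23c and the seed UCACAGU of miR-27 in miR-9985, and neither had a count in any of the 18 libraries. The seed of miR-24-3p, GGCUCAG, occurs in no other name of the table. miR-128-3p carries a seed shifted by 1 base (CACAGUG) relative to that of miR-27.

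The a cluster lies at chr19:13836287-13836659 on the minus strand (GRCh38), where its 3 hairpins span 373 bases within the long noncoding RNA MIR23AHG. GENCODE v29 names this host AC020916.1 and has the hairpins in its exon. The b cluster lies at chr9:95085208-95086088 on the plus strand, where its 3 hairpins span 881 bases inside the protein-coding gene AOPEP, named C9orf3 in GENCODE v29. No GENCODE exon of that gene covers MIR23B or MIR27B, and MIR24-1 lies within an exon (chr9:95085930-95086119) of a nonsense-mediated decay transcript of it.

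**Figure D1:**
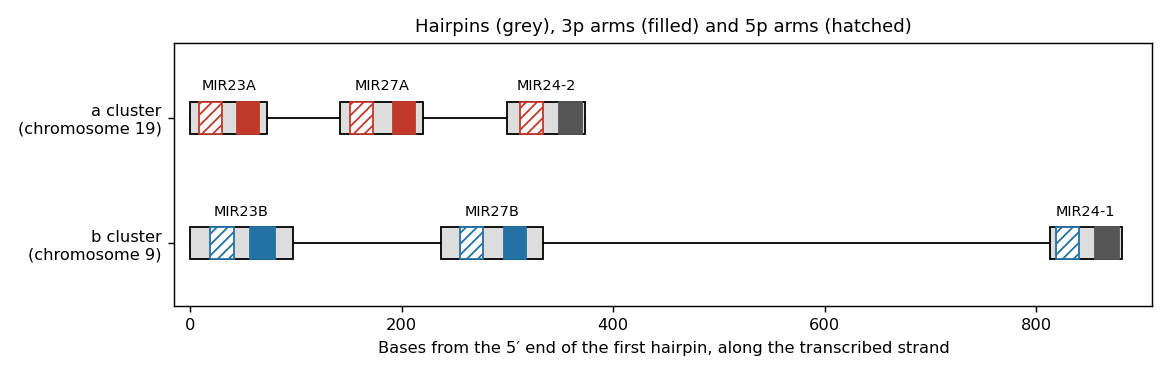
Hairpins of the a cluster (chromosome 19) and the b cluster (chromosome 9), drawn to scale in bases from the 5′ end of the first hairpin along the transcribed strand. Filled boxes are 3p arms and hatched boxes 5p arms, in red for the a cluster, blue for the b cluster and grey for the shared miR-24-3p; the a cluster spans 373 bases and the b cluster 881.

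The 18 libraries held 10017 to 225290 miRNA counts, with 198878 to 225290 in S100 and 10017 to 27027 in the pellets, so member values were least precise in P40 and P100. S100 replicate 1, with 48 counts in all, was not used. Lysate replicate 1 and total exRNA replicate 2 stood apart: their mean Spearman correlations with the rest of their groups were 0.869 and 0.837, against at least 0.904 for the others of those groups. Each of the 4 P40 libraries correlated with P100 or total exRNA at least as well as with the rest of P40 (0.800 to 0.831 within P40). All 8 intestinal epithelial marker miRNAs were detected in every group, at 2.59% to 5.56% of counts. The 6 blood cell markers summed to 0.00799% to 0.0151% in S100, 0.0400% to 0.0439% in lysate (miR-451a, miR-223-3p and miR-144-3p at 0), 0.0900% to 0.232% in total exRNA, 0.273% to 0.343% in P40 and 0.140% to 0.283% in P100. The 5 endothelial and mesenchymal markers summed to 0.0267% to 0.224% and the liver marker miR-122-5p to 0.0104% to 0.0833%. The part of such RNA in the results below was not tested.

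Together the 5 members held 2.04% ± 0.228 (SD, n = 3) of the miRNA counts in lysate, 2.53% ± 0.406 (n = 4) in total exRNA, 1.84% ± 0.323 (n = 4) in P40, 1.29% ± 0.0927 (n = 4) in P100 and 2.04% ± 0.263 (n = 3) in S100. The sums of lysate and S100 overlapped. Of the 5 single members 3 were called different between these groups, as given with each member, beside 62.1% of all tested miRNAs. Levels are given as CPM, counts brought to one library size by TMM scaling; they are shares of a library and not amounts of RNA. Differences are log2 fold changes ± SE of edgeR's quasi-likelihood fit, with p adjusted by Benjamini-Hochberg over the 227 miRNAs tested, and a miRNA is called at an adjusted p under 0.05. All 5 members were among the 227.

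In total exRNA against lysate 2 members were higher and 1 lower, where 35.2% of all tested miRNAs were called. Against lysate, 1 member was lower in P40 (26.9% of all called) and 1 in P100 (37.4%), while in S100 2 were higher and 1 lower (62.1%). Against total exRNA, 1 was lower in P40 (11.9%), 3 were lower in P100 (27.8%), and in S100 1 was higher and 2 were lower (63.4%). Between the pellets no member was called by edgeR, where 4.85% of all tested miRNAs were called and 44 of 227 had an unadjusted p under 0.05; of the members none had one, and DESeq2 called none either. S100 had 2 members higher and 1 lower against P40 (52.9%) and likewise against P100 (59.9%). In all, 21 of the 50 differences of a member in a comparison were called. Over all tested miRNAs the share called ran from 4.85% to 63.4% by comparison, so this total is no result about the members. The comparisons with S100, with 3 of 5 members called each, were near their backgrounds. The median log2 fold change of the 5 members was furthest from that of all 227 in P100 against total exRNA, at -1.15 beside -0.02. Several comparisons share a group, so their values are not independent.

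miR-23b-3p, from the b cluster, was the member whose level differed most between groups. It stood at 16681, 10028 and 11825 CPM in the lysate libraries, in replicate order. In total exRNA it stood at 8034, 7132, 6433 and 4887 CPM, in P40 at 3385, 3762, 4253 and 4744 CPM, and in P100 at 2963, 2626, 2846 and 2333 CPM. The S100 libraries, replicates 2 to 4, held 806, 811 and 1384 CPM. Every library of a group thus lay below every library of the group before it in the order lysate, total exRNA, P40, P100 and S100.

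Against lysate, miR-23b-3p was lower in S100, at -3.68 ± 0.35 on the log2 scale, a 12.8-fold difference (adjusted p = 1.1e-08), and lower in 2 of 2 batches that had both. With no low-count filter this was -2.95, where the median of the 227 miRNAs shifted by 0.70. It was lower at -2.25 ± 0.30 in P100 (adjusted p = 3.6e-06) and at -1.67 ± 0.30 in P40 (adjusted p = 0.00017), each in 3 of 3 batches. As no library of S100, P100 or P40 overlapped with lysate, this agreement between batches was already given. The difference of total exRNA from lysate was smaller, -0.95 ± 0.29 (adjusted p = 0.0136), and was not called without lysate replicate 1 (-0.72, adjusted p = 0.0862) or without both libraries that stood apart (-0.76, adjusted p = 0.0997). It was not called either with library sizes alone (-0.63, adjusted p = 0.0917), with no low-count filter (-0.68, adjusted p = 0.395) or at equal depth (-0.84, adjusted p = 0.0765).

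Among the extracellular groups, miR-23b-3p in S100 was lower than in total exRNA, at -2.73 ± 0.32 (adjusted p = 2.7e-07) and lower than in P40, at -2.01 ± 0.32 (adjusted p = 2.1e-05; -1.34 with no low-count filter). It was lower than in P100, at -1.43 ± 0.31 (adjusted p = 0.000485), a call lost with no low-count filter (-0.77, adjusted p = 0.254). P100 was below total exRNA, at -1.29 ± 0.28 (adjusted p = 0.00137). Of the neighbours in the order of levels, P40 and total exRNA differed by -0.72 ± 0.28 (adjusted p = 0.0950) and P100 and P40 by -0.58 ± 0.28 (adjusted p = 0.252), neither of which passed edgeR's test. DESeq2 called miR-23b-3p lower in P40 than in total exRNA (-0.84, adjusted p = 0.0130).

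miR-23a-3p, the paralog with the same seed from the a cluster, was higher in S100 than in any other group. The S100 libraries held 13026, 8672 and 13096 CPM. Lysate held 6281, 3523 and 4559 CPM and total exRNA 6312, 8435, 5161 and 4859 CPM, so the highest total exRNA library came close to the lowest of S100 without reaching it. P40 held 3197, 4031, 6086 and 5851 CPM and P100 4860, 5682, 4904 and 3449 CPM, and both overlapped with lysate.

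miR-23a-3p was higher in S100 than in lysate by 1.28 ± 0.34 (2.43-fold, adjusted p = 0.00215), than in P40 by 1.27 ± 0.31 (adjusted p = 0.00164) and than in P100 by 1.29 ± 0.31 (adjusted p = 0.00131). With no low-count filter these were 2.00, 1.93 and 1.93, beside shifts of the median of all 227 by 0.70, 0.67 and 0.65. Against total exRNA it was higher by 0.90 ± 0.31 (adjusted p = 0.0145), which was not called without S100 replicate 2 (0.81, adjusted p = 0.0542) or S100 replicate 4 (0.81, adjusted p = 0.0568). In the order S100, total exRNA, P40, lysate and P100, no pair among the last 4 groups passed the test. Their differences ran from -0.38 (P100 against total exRNA) to 0.38 (total exRNA against lysate).

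**Figure D2:**
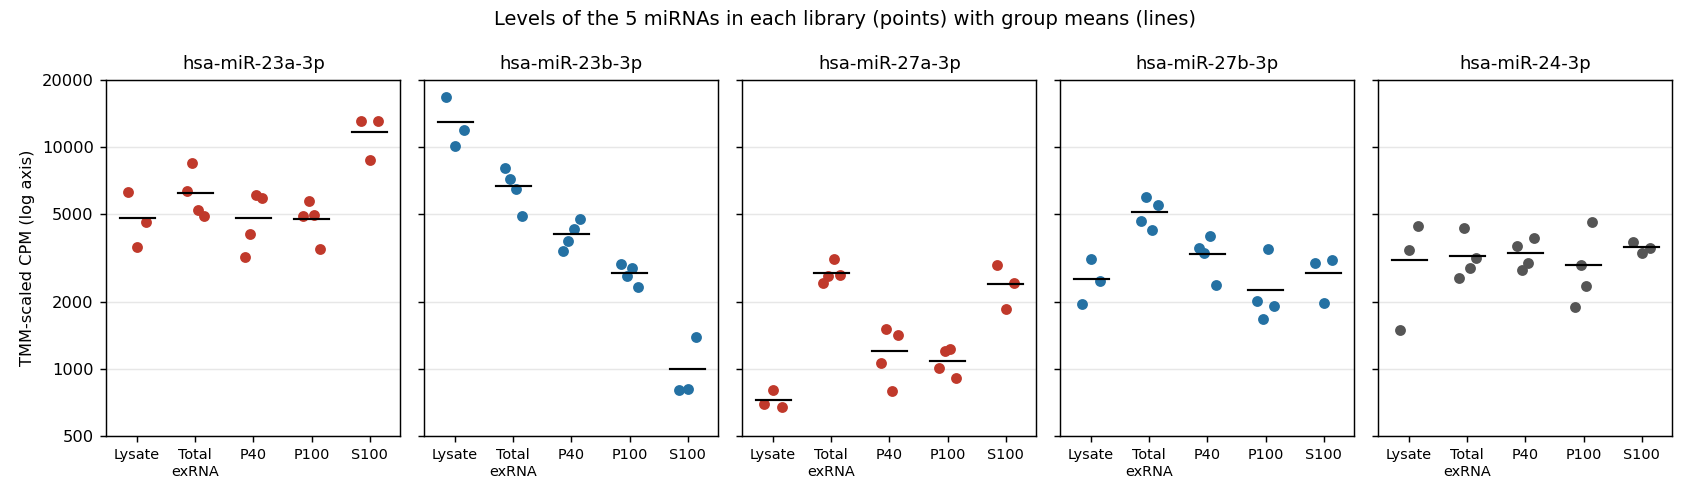
TMM-scaled CPM (log axis) of the 5 miRNAs, 1 panel each, in every library of the 5 groups; points are libraries and lines are group means. miR-23b-3p steps down from 10028 CPM or more in lysate to 1384 CPM or less in S100, miR-23a-3p is highest in S100, and the groups of miR-24-3p overlap.

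The share of miR-23a-3p within the pair, its counts as a percent of miR-23a-3p plus miR-23b-3p in the same library, does not depend on library scaling. Its level does depend on how well each sequence was ligated and amplified, which was not measured, so the shares are compared between groups. In the 3 lysate libraries the share was 27.4%, 26.0% and 27.8%, from 658, 1831 and 1017 counts. In total exRNA it was 44.0%, 54.2%, 44.5% and 49.9%. It was 48.6%, 51.7%, 58.9% and 55.2% in P40 and 62.1%, 68.4%, 63.3% and 59.6% in P100. In S100, from 2279 to 2762 counts a library, it was 94.2%, 91.4% and 90.4%. The exact 95% (Clopper-Pearson) interval of lysate replicate 2 was 24.0% to 28.1% and that of S100 replicate 3 was 90.2% to 92.6%, whereas that of P100 replicate 4, from 57 counts, was 45.8% to 72.4%. These intervals cover counting error only.

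The group means were 27.1% ± 0.950 (SD, n = 3) in lysate, 48.1% ± 4.82 (n = 4) in total exRNA, 53.6% ± 4.44 (n = 4) in P40, 63.4% ± 3.68 (n = 4) in P100 and 92.0% ± 1.93 (n = 3) in S100. The mean share was thus higher in each group than in the one named before it. Total exRNA, the unfractionated medium, had a mean below those of all 3 fractions of that medium, the reason for which was not tested. The groups did not overlap in 9 of 10 comparisons, and P40 and total exRNA did. At equal depth P100 and P40 overlapped too, which left 8 of 10. By a two-sided exact permutation test, P100 differed from total exRNA by 15.2 percentage points (p = 0.0286) and from P40 by 9.77 points (p = 0.0286), the smallest p that 4 against 4 libraries allow. At equal depth the latter was 11.5 points (exact permutation p = 0.0571). With 3 libraries in 1 group or in both, the exact permutation p cannot go below 0.0571 or 0.10, and S100 against lysate, at 65.0 points, had an exact p of 0.10. After adjustment over the 20 tests of the miR-23 and miR-27 pairs none was under 0.05, and the lowest adjusted p of these exact tests was 0.0952. The numbers of libraries fixed this in advance. Even with every test at its smallest possible p, none could be under 0.05 after adjustment, so it says nothing about the size of the differences. All 4 of 4 batches showed the direction of the differences of P100 from total exRNA and from P40. Without overlap of these groups they could not do otherwise.

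**Figure D3:**
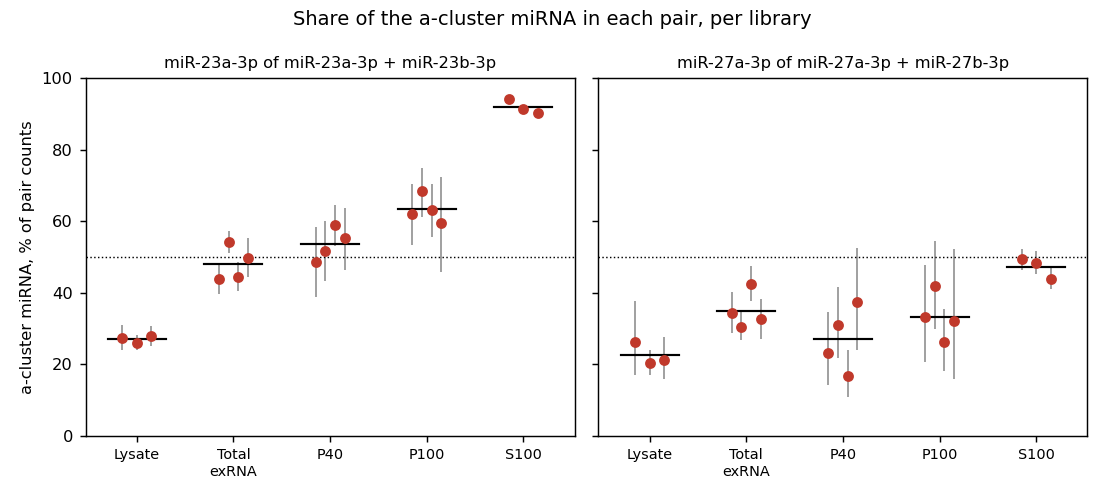
Percent of a pair's counts that belong to the a-cluster member, per library, for miR-23 (left) and miR-27 (right); bars are exact 95% binomial intervals, horizontal lines are group means and the dotted line marks 50%. The miR-23 share runs from 27.1% in lysate to 92.0% in S100, and the miR-27 share from 22.7% to 47.3% and below the dotted line in all 18 libraries.

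miR-27a-3p, made next to miR-23a-3p in the a cluster, had its lowest mean in lysate and its highest in total exRNA and S100. Lysate held 698, 799 and 677 CPM, from 20 to 108 counts. Total exRNA held 2426, 2619, 3115 and 2638 CPM and S100 2937, 1860 and 2427 CPM. The pellet means lay between, with 1066, 1505, 795 and 1423 CPM in P40 and 1008, 1205, 1226 and 913 CPM in P100, and P40 overlapped with lysate. No library of total exRNA or S100 overlapped with lysate or a pellet.

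Total exRNA was above lysate by 1.89 ± 0.34 (3.71-fold, adjusted p = 0.000126) and S100 was above lysate by 1.72 ± 0.35 (3.30-fold, adjusted p = 0.000173). At equal depth these were 2.61 and 2.58, from 1 draw that left 2, 3 and 7 counts of miR-27a-3p in the lysate libraries. The difference of S100 from lysate was 2.42 with no low-count filter. S100 was also above P100 by 1.13 ± 0.32 (adjusted p = 0.00487) and above P40 by 1.02 ± 0.32 (adjusted p = 0.0104), or by 1.77 and 1.68 with no low-count filter. The difference from P40 was not called at equal depth (1.00, adjusted p = 0.0587) or without S100 replicate 2 (0.85, adjusted p = 0.0628). P100 was below total exRNA, at -1.30 ± 0.31 (adjusted p = 0.00321). P40 was below total exRNA, at -1.19 ± 0.31 (adjusted p = 0.0133), a call lost with no low-count filter (-1.40, adjusted p = 0.0695), at equal depth (-1.04, adjusted p = 0.112) and when only these groups were fitted (-1.18, adjusted p = 0.0618). Neither pellet passed the test against lysate, at 0.70 ± 0.34 (adjusted p = 0.129) for P40 and 0.59 ± 0.34 (adjusted p = 0.180) for P100, and total exRNA and S100 differed by -0.17 ± 0.31 (adjusted p = 0.640). DESeq2 called both pellets higher than lysate, and for P40 so did edgeR with library sizes alone or at equal depth.

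miR-27b-3p, its paralog from the b cluster, was highest in total exRNA. Its level there was 4643, 5949, 4203 and 5470 CPM, above every library of the other groups. Lysate held 1954, 3130 and 2497 CPM, P40 3510, 3332, 3977 and 2372 CPM, P100 2015, 1679, 3459 and 1928 CPM, and S100 3004, 1981 and 3093 CPM, and these 4 groups overlapped. S100 and lysate differed by 0.08 ± 0.33 (adjusted p = 0.859), which did not pass the test.

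P100 was below total exRNA, at -1.15 ± 0.30 (adjusted p = 0.00589). S100 was below total exRNA, at -0.91 ± 0.32 (adjusted p = 0.0154), which was not called without S100 replicate 3 (-0.73, adjusted p = 0.0878) or with no low-count filter (-0.46, adjusted p = 0.503). Total exRNA was above lysate by 1.00 ± 0.32 (adjusted p = 0.0198). That call was lost without lysate replicate 1 (0.85, adjusted p = 0.0797), without lysate replicate 3 (0.98, adjusted p = 0.0534), without both libraries that stood apart (0.76, adjusted p = 0.129) and with no low-count filter (1.23, adjusted p = 0.0613). P40 differed from total exRNA by -0.61 ± 0.29 (adjusted p = 0.192), which did not pass in edgeR although the libraries did not overlap, while DESeq2 called it lower (-0.71, adjusted p = 0.0323). P40, S100, lysate and P100, in the order of their means, did not differ from their neighbours by edgeR's test, except that S100 was called below P40 at equal depth (-1.02, adjusted p = 0.0306, in place of -0.30).

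**Figure D4:**
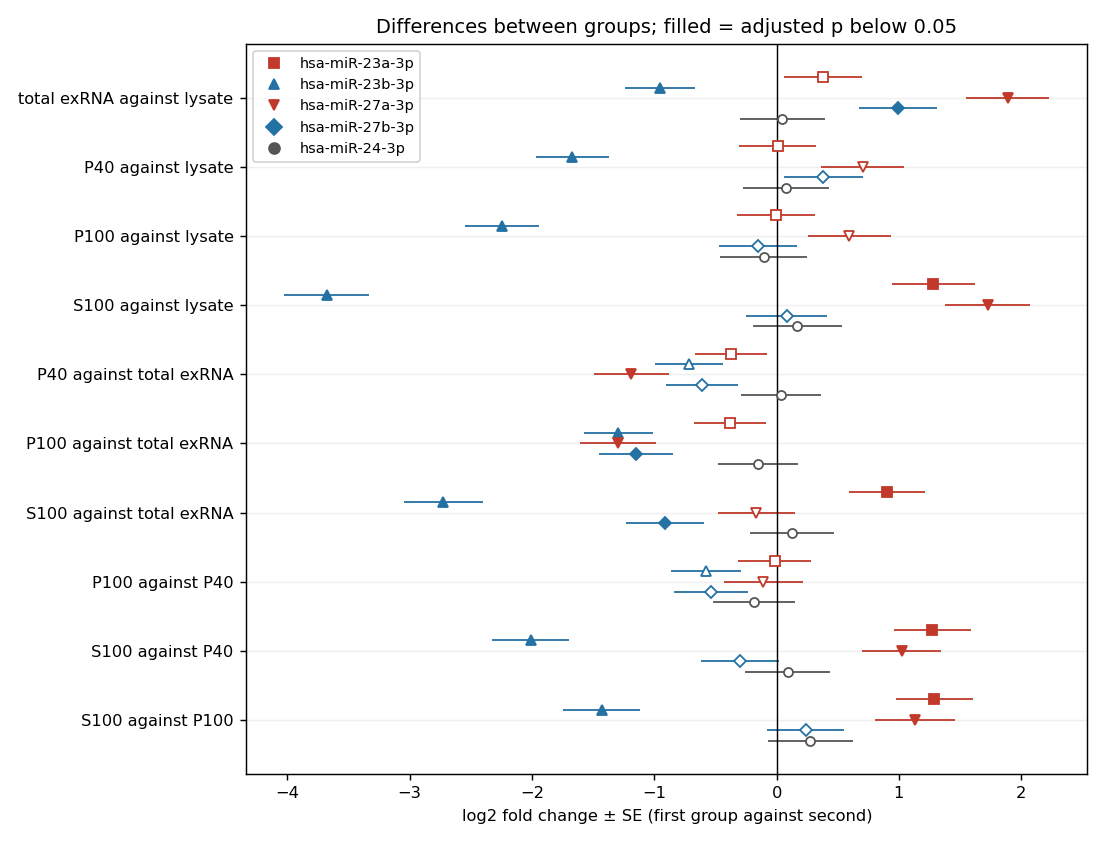
Log2 fold change ± SE of the 5 miRNAs in the 10 comparisons (first group against second), 1 marker shape each; filled markers have an adjusted p under 0.05 in edgeR's quasi-likelihood test. miR-23b-3p reaches -3.68 in S100 against lysate, where miR-23a-3p is at 1.28, and miR-24-3p has no filled marker.

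Within the miR-27 pair, miR-27b-3p had more counts than miR-27a-3p in all 18 libraries as deposited, though after thinning to equal depth the mean share of miR-27a-3p in S100 was 56.6%. The share of miR-27a-3p was 26.3%, 20.3% and 21.3% in lysate, from 76, 531 and 197 counts. It was 34.3%, 30.6%, 42.6% and 32.5% in total exRNA and 49.4%, 48.4% and 44.0% in S100. The pellets spread widely, with 23.3%, 31.1%, 16.7% and 37.5% in P40 and 33.3%, 41.8%, 26.2% and 32.1% in P100, from 28 to 138 counts a library. P40 replicate 3, from 138 counts, had an exact 95% interval of 10.9% to 24.0%, and P40 replicate 4, from 48 counts, one of 24.0% to 52.6%.

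The mean share was 22.7% ± 3.21 (SD, n = 3) in lysate, 35.0% ± 5.27 (n = 4) in total exRNA, 27.1% ± 9.09 (n = 4) in P40, 33.4% ± 6.44 (n = 4) in P100 and 47.3% ± 2.91 (n = 3) in S100. S100 did not overlap with any of the other 4 groups, nor did total exRNA with lysate, which makes 5 of 10 comparisons. S100 was above lysate by 24.6 percentage points (two-sided exact permutation p = 0.10, the smallest possible) and above P40 by 20.1, P100 by 13.9 and total exRNA by 12.3 points (each exact p = 0.0571, the smallest possible). P40 and lysate differed by 4.48 points (exact p = 0.457) and P100 and total exRNA by -1.64 points (exact p = 0.714). In both pairs, then, the mean a share was lowest in lysate and highest in S100, but the order of the 3 groups between differed, and whether the pairs differ in this was not tested.

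miR-24-3p, which reads cannot assign to a cluster, was called in none of the 10 comparisons by edgeR and had no unadjusted p under 0.05 in any. Lysate held 1501, 3426 and 4382 CPM, with replicate 1, from 43 counts, at the lowest CPM of the 18 libraries. Total exRNA held 2556, 4321, 2839 and 3166 CPM, P40 3573, 2795, 3009 and 3874 CPM, P100 1897, 2927, 2364 and 4565 CPM, and S100 3717, 3321 and 3512 CPM. All pairs of groups overlapped. The group means ran from 2938 CPM ± 1164 (SD, n = 4) in P100 to 3517 CPM ± 198 (n = 3) in S100, whose difference was 0.28 ± 0.35 (adjusted p = 0.522). A call in no comparison does not show equal levels. The SE was 0.33 to 0.37, and a member difference of -0.72 ± 0.28 (miR-23b-3p, P40 against total exRNA) was not called. Differences of miR-24-3p well above 1 SE could thus have gone undetected.

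Summed by seed, miR-23 (a plus b) held 1.49% ± 0.299 (SD, n = 3) of counts in lysate, 1.36% ± 0.288 (n = 4) in total exRNA, 0.978% ± 0.275 (n = 4) in P40, 0.696% ± 0.111 (n = 4) in P100 and 1.21% ± 0.178 (n = 3) in S100. Lysate and S100 overlapped in this sum, whereas their miR-23a-3p and miR-23b-3p levels moved in opposite directions. The miR-27 seed sum was 0.280% ± 0.0695 (n = 3) in lysate and 0.825% ± 0.0972 (n = 4) in total exRNA, without overlap, and it was 0.491% ± 0.0323 (n = 4) in P40, 0.312% ± 0.0564 (n = 4) in P100 and 0.491% ± 0.0864 (n = 3) in S100. P40 and S100 did not overlap with lysate in this sum either, whereas P100 did.

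Summed by cluster, the a members (miR-23a-3p and miR-27a-3p) held 0.466% ± 0.0842 (SD, n = 3) of counts in lysate, 0.945% ± 0.186 (n = 4) in total exRNA, 0.663% ± 0.189 (n = 4) in P40, 0.546% ± 0.107 (n = 4) in P100 and 1.35% ± 0.220 (n = 3) in S100. The b members (miR-23b-3p and miR-27b-3p) held 1.30% ± 0.152 in lysate, 1.24% ± 0.150 in total exRNA, 0.807% ± 0.0974 in P40, 0.462% ± 0.0512 in P100 and 0.354% ± 0.0494 in S100, with the same n. In counts, the mean b sum was above the mean a sum in lysate, total exRNA and P40 and below it in P100 and S100. This switch lay in the miR-23 pair alone, since miR-27b-3p had more counts than miR-27a-3p in every library. Not every pellet library followed its mean. The a and b sums were 0.877% and 0.858% in P40 replicate 4, and 0.518% and 0.533% in P100 replicate 3. Ligation and amplification of each sequence, which were not measured, also enter such a comparison of a with b within a group.

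The 5p arms, cut from the same hairpins as the members, were far scarcer. miR-23a-5p alone passed the low-count filter. Its counts were 141, 111 and 121 in S100, 7, 36 and 6 in lysate, and 6, 5, 4 and 5 in total exRNA. P40 had 1, 0, 1 and 0 counts and P100 2, 0, 3 and 0. Scaled to depth, the S100 libraries held 724, 462 and 634 CPM, against at most 266 CPM of miR-23a-5p in any other library. Since it passed that filter through S100 alone, its differences are given as ratios of summed counts with no test over samples. On these, S100 had 3.09 times the miR-23a-5p of lysate per count of library (exact 95% counting interval 2.29 to 4.25) and 9.10 times that of P100 (3.86 to 28.2). P40, with 2 counts in all, lay 20.3-fold below S100 with an interval of 5.59 to 168, and it was under the 3 counts taken as the floor.

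miR-23a-5p made up 49 of the 81 miR-23 5p counts in lysate (60.5%, exact 95% interval 49.0% to 71.2%) and 373 of 388 in S100 (96.1%, 93.7% to 97.8%). On summed libraries the a share of the miR-23 5p arms was higher in S100 than in lysate. Lysate replicate 2 alone gave 36 of the 49 miR-23a-5p counts and 22 of the 32 miR-23b-5p counts there. Replicates differed beyond sampling noise, which these intervals leave out, and no test was made over samples. For the miR-27 5p arms a share could not be compared: miR-27a-5p made up 56 of 99 counts in lysate (56.6%, 46.2% to 66.5%), but S100 held 1 count of miR-27a-5p and 7 of miR-27b-5p. In level, miR-27a-5p went the other way from miR-27a-3p, with 215 CPM in lysate and 1.56 CPM in S100 on summed counts. The lysate libraries held 3, 47 and 6 counts of it and the S100 libraries 0, 1 and 0, and no test was made. Of the miR-24 5p arms, miR-24-1-5p had no count in any library, which in S100 allows up to 4.67 CPM (3 counts over the group), and miR-24-2-5p had 2 counts in P100 and 1 in S100. From MIR3074, a hairpin on the strand opposite MIR24-1, miR-3074-3p had no count and miR-3074-5p had 8 counts, all in total exRNA replicate 3.

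**Figure D5:**
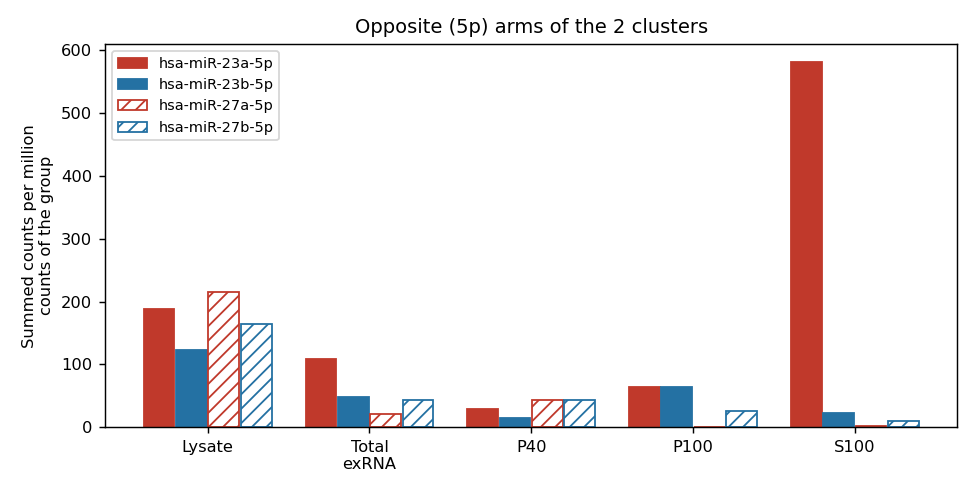
Summed counts of each group, in CPM of its summed total, for the 5p arms of MIR23A, MIR23B, MIR27A and MIR27B, as bars from 0. The bar of miR-23a-5p in S100 stands for 373 counts, that in lysate for 49, and the other 3 arms have at most 15 counts in S100.

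miR-128-3p, with the seed shifted by 1 base relative to miR-27, was called in none of the 10 comparisons by edgeR. Its mean ran from 1338 CPM ± 119 (SD, n = 4) in total exRNA to 2326 CPM ± 920 (n = 4) in P100. Lysate, at 1351 CPM ± 469 (n = 3), and P40, at 1428 CPM ± 367 (n = 4), lay close to total exRNA. In total exRNA miR-27a-3p and miR-27b-3p had their highest means.

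On log2 CPM over the 18 libraries, Pearson's r was -0.46 between miR-23a-3p and miR-23b-3p and 0.54 between miR-27a-3p and miR-27b-3p. Within the a cluster miR-23a-3p and miR-27a-3p had r = 0.57, and within the b cluster miR-23b-3p and miR-27b-3p had r = 0.25. Without the S100 libraries (15 left) these were 0.31, 0.68, 0.38 and 0.17, so the negative value of the miR-23 pair rested on S100. These are descriptions, since libraries of a group share their source and scaling.

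Among the other tested miRNAs, those whose levels were most like miR-23b-3p were miR-103a-3p (r = 0.94), miR-4454 (0.94) and miR-107 (0.93), and without S100 the values were 0.87, 0.86 and 0.88. For miR-23a-3p they were miR-22-3p (0.85), miR-186-5p (0.81) and miR-22-5p (0.78), which without S100 fell to 0.51, 0.59 and 0.57. miR-27a-3p was most like miR-141-3p (0.77), miR-33a-5p (0.75) and miR-301b-3p (0.66). miR-27b-3p was most like miR-21-5p (0.82), miR-622 (0.81) and miR-200a-3p (0.77). For miR-24-3p the values were 0.74 with miR-146b-5p, 0.73 with miR-30b-5p and 0.69 with miR-148b-3p. None of the 15 is a member of the clusters, and each member had a different set of 3.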

How the data were processed

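Small RNA libraries (RealSeq-AC kit, single-end reads of 50 bases, per the labels' protocols) were made from 19 samples. Each deposited file gives the raw count of every mature miRNA found in 1 library, and a miRNA not listed in a file was taken as 0. The tools named per the submitters' processing notes are cutadapt 1.16, FastQC and Bowtie2, with the build GRCh38; parameters, the treatment of reads fitting more than 1 miRNA and the annotation release are not given in the sources used here. No molecular identifiers are mentioned, so intervals and floors cover counting error only.

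S100 replicate 1 (48 counts over 28 miRNAs, none a member) fell under a minimum of 100 detected miRNAs a library and was not used. The 18 others held 10017 to 225290 counts, at which 3 counts equal 299 to 13.3 CPM. Counts were analysed with edgeR 4.0.16 (R 4.3.3): filterByExpr on groups (minimum count 10, minimum total 15) kept 227 miRNAs, with 98.5% to 99.1% of counts; TMM scaling and 1 robust quasi-likelihood fit over the 5 groups (common biological coefficient of variation 0.419) gave 10 comparisons. The SE is the absolute log2 fold change divided by the square root of F; a prior count of 2 went into log2 CPM. The fit was also run on simulated counts, with the same coefficient of variation for every miRNA and differences put into S100 alone. That setting is simpler than these data, so it does not show how the fit performs on them. Pair shares were compared by two-sided exact permutation tests (SciPy 1.17.1).

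Alternatives were library sizes alone, no low-count filter, 1 seeded thinning of all libraries to 10017 counts (equal depth), DESeq2 1.42.0 on the same 227 miRNAs, only the 2 groups (with their TMM factors kept), the replicate block, each library left out and, chosen after seeing the data, leaving out the libraries whose mean Spearman correlation with their group was more than 0.03 below that of every other library of it (lysate replicate 1 and total exRNA replicate 2). The batch number in the labels equals the replicate number and so pairs samples; the deviations of same-numbered libraries from their group means correlated at -0.03 on average (-0.57 to 0.31, 32 pairs). Replicate counts differed beyond sampling noise in every pair of libraries of a group. Named miRNAs were the 5 members, the 5p arms of their hairpins, MIR3074 products, miRNAs with the same seed, miR-128-3p, and for each member the 3 most correlated tested miRNAs. Members and lists were chosen with earlier results of these data known.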

Additional observations from a re-analysis of the deposited data

How the results depend on the processing

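Of the 21 called differences of a member between groups, 14 kept their direction and their call under every alternative and none changed sign; the 7 that lost a call somewhere are given with their values beside the results. The replicate block, which pairs libraries by batch number, changed no call, and only uncalled values of miR-24-3p changed sign under it, in S100 against total exRNA (-0.00038) and against P40 (-0.070). The number of members called in total exRNA against lysate was 1 in place of 3 with no low-count filter and without both libraries that stood apart, and ranged from 1 (without lysate replicate 1) to 3 with single libraries left out. In P40 against lysate it was 2 in place of 1 with library sizes alone, at equal depth and by DESeq2, and in P100 against lysate 2 by DESeq2. In P40 against total exRNA it was 0 in place of 1 with no low-count filter, at equal depth and with only those groups fitted, and 3 by DESeq2, which added miR-23b-3p and miR-27b-3p. The share of all miRNAs called under each alternative is not given here. A change in these counts therefore cannot be told from a change over all miRNAs. The cause of these changes was not tested.

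The other changes of sign were of uncalled values. For miR-24-3p, leaving out the libraries that stood apart gave -0.45 in total exRNA, -0.24 in P40 and -0.15 in S100 against lysate, and 0.018 in P100 against total exRNA. Equal depth gave 0.12 in P100 and -0.073 in S100 against lysate, 0.072 in P100 and -0.12 in S100 against total exRNA, and for S100 -0.41 against P40 and -0.19 against P100. Library sizes alone gave -0.0048 in S100 against total exRNA and -0.093 against P40, DESeq2 gave 0.042 in P100 against lysate and -0.080 in P40 against total exRNA, and no low-count filter gave -0.19 in the latter. For miR-23a-3p in P100 against lysate, values were 0.14 with library sizes alone, 0.064 with no filter, 0.27 at equal depth, 0.19 by DESeq2 and 0.24 without the libraries that stood apart; in P100 against P40 they were 0.0029 with no filter, 0.00998 at equal depth and 0.063 by DESeq2. For miR-27b-3p, equal depth gave 0.23 in P100 and -0.15 in S100 against lysate and -0.38 in S100 against P100, besides the call gained in S100 against P40 (-1.02), DESeq2 gave 0.046 in P100 against lysate, leaving out the libraries that stood apart gave -0.066 in S100 against lysate, and no filter gave 0.32 in S100 against P40, opposite in sign to equal depth. For miR-27a-3p, no filter gave 0.28 in S100 against total exRNA.

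With single libraries left out, miR-24-3p ranged from -0.27 to 0.37 in total exRNA, -0.24 to 0.40 in P40, -0.43 to 0.22 in P100 and -0.15 to 0.49 in S100 against lysate, and from -0.061 to 0.21 in P40 and -0.42 to 0.022 in P100 against total exRNA. miR-23a-3p ranged from -0.17 to 0.25 in P40 and -0.19 to 0.23 in P100 against lysate and from -0.16 to 0.28 in P100 against P40. miR-27b-3p ranged from -0.44 to 0.033 in P100 and -0.066 to 0.27 in S100 against lysate and from -0.41 to 0.21 in S100 against P40, and miR-27a-3p from -0.17 to 0.054 in P100 against P40. At equal depth (1 draw) the mean miR-23a-3p share was 24.9% in lysate, and that of miR-27a-3p was 16.4% in lysate and 56.6% in S100. These miR-27a-3p shares rest on 2, 3 and 7 counts of it in the lysate libraries and 43, 16 and 23 in S100. The other share values moved by less than 1 SD. Library sizes alone shifted the median of the 227 miRNAs by up to 0.34 (P40 against lysate) and no filter by up to 0.70 (S100 against lysate). Pellet libraries with 28 to 138 miR-27 counts limit the precision there. In 21 sets of 4 libraries no library lay far from the others by Dixon's test.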
